A study of Mus musculus with 12 samples.

Results

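The genes described here are 43 genes of the cell cycle and of DNA replication, measured by RNA sequencing in mouse liver. They were chosen by symbol from a list of cyclins, cyclin-dependent kinases, replication and mitosis factors and cell cycle inhibitors, and make up 43 of the 56441 genes in the deposited count table, which spells symbols in capitals (CCND1, MCM2, CDC20). The livers came from mice that had received adeno-associated virus 8 (AAV8) carrying fumarate hydratase (FH), an enzyme of the tricarboxylic acid cycle, or the AAV8 vector alone, by tail vein at 6 to 8 weeks of age. One design used C57BL/6 mice that were fasted for 24 h at 1 month after injection, and the other used ob/ob mice, which lack functional leptin, kept on a high-fat diet for 1 month. Each of the 4 groups (fasted vector, fasted FH, ob/ob vector, ob/ob FH) holds 3 libraries. Nothing in the labels says that these came from separate mice, and p-values then cover only the spread among libraries, which may be technical. Strain, diet and fasting differ together between the designs, so their parts in any ob/ob against fasted difference cannot be told apart. The virus is described as liver-specific, and which promoter drives the delivered gene is not stated.

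A cell enters the cycle when D-type cyclins with CDK4 or CDK6, and then cyclin E with CDK2, phosphorylate the retinoblastoma protein and release E2F factors, which turn on genes for DNA synthesis. Origins are licensed when CDC6 and CDT1 load the MCM2-7 helicase, and forks then need the clamp PCNA and deoxynucleotides made by ribonucleotide reductase and thymidylate synthase. Entry into mitosis runs through FOXM1, cyclin B with CDK1 and the Aurora and Polo kinases, and exit through CDC20 and the anaphase-promoting complex. Most hepatocytes of an adult liver are quiescent and re-enter the cycle after loss of tissue, while macrophages, endothelial cells and lymphocytes of the liver can also divide and contribute these transcripts to whole tissue.

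The libraries held from 12231828 counts in a fasted vector library to 25873379 in a fasted FH library, and the 6 FH libraries were all deeper (19107050 counts or more) than the 6 vector libraries (14884323 or fewer). Levels are given in CPM, counts relative to the library's scaled total, with TMM scaling, which sets the bulk of genes equal between libraries, and under library totals the median gene's log2 fold change with FH moved by -0.67 (fasted) and -0.62 (ob/ob). Counts of calls over lists in the comparisons of FH with vector are therefore given on both scales, and values of single genes are on the TMM scale unless library totals are named. Fh1, the mouse gene for fumarate hydratase, was 2.55-fold and 5.57-fold higher with FH in the fasted and ob/ob livers (log2 1.35 (SE 0.20), adjusted p = 9.95e-05, and 2.48 (SE 0.21), adjusted p = 1.79e-06). The X-inactivation RNA Xist had 2242 to 4992 counts in each ob/ob FH library and 1 to 24 in each of the other 9. The Y-linked Ddx3y had 0 counts in the former and 1112 to 2447 in the latter. Sex and FH therefore cannot be told apart in the ob/ob comparison of FH with vector or in the difference of FH effects. Between the FH groups, sex cannot be told apart from the design. Replicate 2 of the ob/ob vector group stood apart from replicates 1 and 3 in circadian genes, with Dbp at 35.6, 0.420 and 36.7 CPM and Arntl at 4.35, 21.8 and 5.96 CPM in replicates 1, 2 and 3. The labels name hepatocytes as the cell type, and macrophage, endothelial and stellate markers were all detected in every group.

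Promoter sequences of licensing and mitosis genes are shown first. RefSeq (GRCm38.p6, an older build than the GRCm39 of the alignments) gave an entry for 33 of the 43 genes. The 250 bases before each start were searched on both strands for 3 classes of element. These were E2F sites (TTTCCCGC, TTTGGCGC, TTTCGCGC or TTTGCCGC), the cell cycle homology region or CHR (TTTGAA or TTTAAA) and the CCAAT box (CCAAT). The last 150 bases before the start are printed 5′ to 3′ on the gene's strand, with matches in capitals (those on the other strand as their reverse complement), and 2 E2F matches on opposite strands overlap in the longest run of capitals of Mcm6. Mcm6 (chr1:128359706-128359855, minus strand) and Cdc6 (chr11:98908001-98908150, plus strand) are licensing genes with E2F matches. Cdk1 (chr10:69352913-69353062, minus strand), Cdc20 (chr4:118437344-118437493, minus strand) and Ccnb1 (chr13:100786487-100786636, minus strand) are mitosis genes with CHR and CCAAT matches. Cenpa (chr5:30666736-30666885, plus strand) holds the same classes of match but fell with FH in the ob/ob livers, where the other printed genes rose.
Mcm6: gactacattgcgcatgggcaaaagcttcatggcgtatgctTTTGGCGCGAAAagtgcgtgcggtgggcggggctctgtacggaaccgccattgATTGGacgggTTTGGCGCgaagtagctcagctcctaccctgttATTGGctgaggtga
Cdc6: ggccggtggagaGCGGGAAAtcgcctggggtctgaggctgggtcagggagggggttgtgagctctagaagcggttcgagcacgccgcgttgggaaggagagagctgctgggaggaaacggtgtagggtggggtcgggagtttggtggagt
Cdk1: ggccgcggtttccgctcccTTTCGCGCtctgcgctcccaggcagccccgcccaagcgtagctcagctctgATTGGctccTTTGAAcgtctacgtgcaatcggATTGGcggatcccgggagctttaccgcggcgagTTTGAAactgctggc
Cdc20: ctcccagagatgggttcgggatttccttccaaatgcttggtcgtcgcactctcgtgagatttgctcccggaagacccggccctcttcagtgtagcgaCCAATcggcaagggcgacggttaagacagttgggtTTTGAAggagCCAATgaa
Ccnb1: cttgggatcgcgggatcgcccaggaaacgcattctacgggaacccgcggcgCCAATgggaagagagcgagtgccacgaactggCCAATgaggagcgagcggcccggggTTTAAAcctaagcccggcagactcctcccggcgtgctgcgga
Cenpa: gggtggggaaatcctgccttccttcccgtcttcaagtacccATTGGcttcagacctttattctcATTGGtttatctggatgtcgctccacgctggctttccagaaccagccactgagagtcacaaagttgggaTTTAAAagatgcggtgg

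Across the 8 licensing and fork genes with an entry, 4 held an E2F match (Cdc6, Mcm5, Mcm6 and Mcm7), against 2.16% of the 27025 genes searched. CHR matches stood before 10 of 12 mitosis genes, against 28.1% of all genes, and CCAAT matches before 11 of 12, against 37.5%. Both elements together preceded 9 of the 12 mitosis genes and 11.2% of all genes. A match describes letters in the window and is not a site of binding.

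In the fasted livers 11 genes rose and 9 fell, where 27.4% of the 15228 genes tested rose and 27.6% fell (edgeR adjusted p under 0.05), so neither share of the 43 was above that of all genes. The 11 were Ccnd1, Ccnd3, Cdk6, Ccne1, Cdt1, Mcm5, Mcm6, Pcna, Rrm1, Rrm2 and Tyms, and the 9 were Ccnd2, Ccna2, Foxm1, Ccnb1, Birc5, Cenpa, Kif11, Cdkn1a and Cdkn1b. In the ob/ob livers 28 rose and 4 fell, where 25.8% and 27.9% of all genes did. The median log2 fold change of the 43 genes was -0.19 in the fasted and 1.15 in the ob/ob livers, beside -0.04 and -0.01 for all genes. On library totals 2 rose and 20 fell in the fasted livers (7.16% and 55.7% of all genes), and 14 rose and 9 fell in the ob/ob livers (6.83% and 53.3%). Of the calls, 2 of the 11 fasted rises (Ccne1 and Rrm1) and all 9 fasted falls held on both scales, as did 14 of the 28 ob/ob rises and all 4 ob/ob falls. Library totals shift FH effects down in general (-0.67 and -0.62 for the median gene). They can therefore hardly end a fall, and the holding of the falls is no added support for them. The 11 fasted rises became 7 without fasted FH replicate 3 or any fasted vector library and 6 without fasted FH replicate 2, and the 4 ob/ob falls became 2 without ob/ob vector replicate 1 and 1 without ob/ob FH replicate 2. Without ob/ob vector replicate 2 the ob/ob livers gave 26 rises and 4 falls.

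All 43 genes passed the filter on low counts. Cdc6, Aurkb, Plk1 and Bub1 did so only with the help of the ob/ob FH libraries. For Cdc6, Aurkb and Plk1, which are among the 28 ob/ob rises, a higher level there was built into their being tested. Bub1 had means of 0.664 CPM in ob/ob vector and 0.646 CPM in ob/ob FH libraries, so both ob/ob groups carried it. Of the 43, 16 stayed under 1 CPM in every library of at least 1 group. Exons of Ccnd1, Ccnd2, Ccnd3, Ccne2, Ccna2, Cdk2, Cdk4, Cdk6, Cdkn1a, E2f8, Foxm1, Rb1, Mcm7, Gins2, Cdc20, Plk1, Kif20a and Top2a overlap another gene by 34 to 2758 bases in GENCODE M21, mostly on the opposite strand, and without a stated strand setting the reads there cannot be told apart. In whole tissue, fewer cells of a type and less RNA per cell cannot be told apart.

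**Figure D1:**
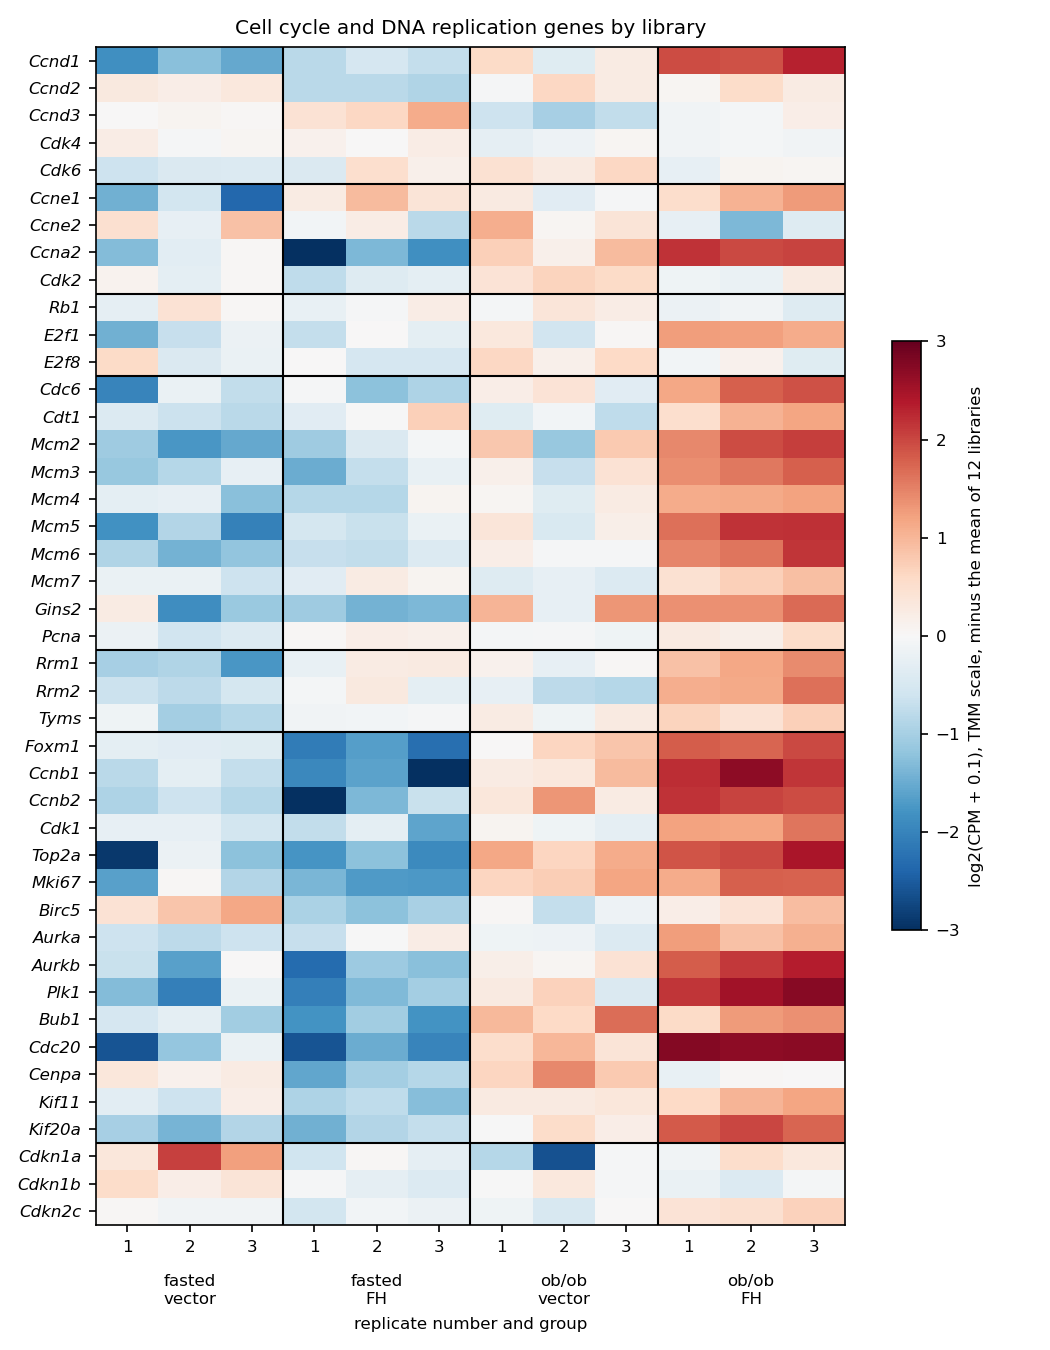
Level of each of the 43 genes (rows, by role) in each of the 12 libraries (columns, by group), as log2(CPM + 0.1) on the TMM scale minus the gene's mean over the 12 libraries, from -3 (blue) to 3 (red). The 3 ob/ob FH columns are the reddest in the licensing and mitosis blocks, and the 3 fasted FH columns are the bluest in the mitosis block.

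**Figure D2:**
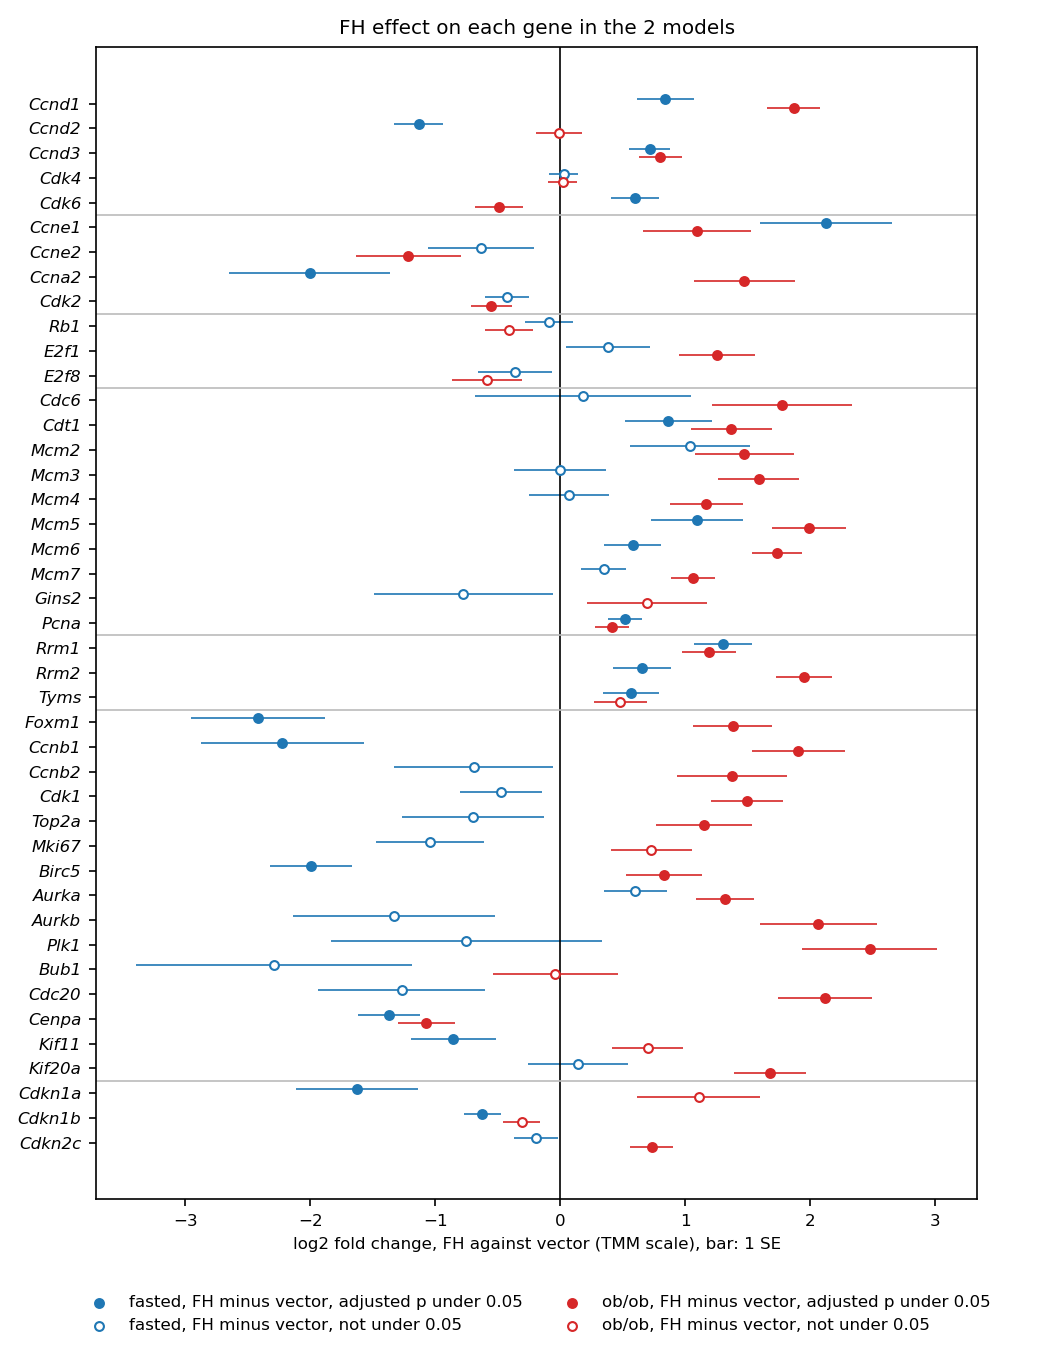
Log2 fold change of FH against vector (TMM scale) for each gene in the fasted (blue) and ob/ob (red) livers, with bars of 1 SE and filled points for adjusted p under 0.05. Foxm1, Ccnb1, Ccna2 and Birc5 lie left of 0 in the fasted livers and right of 0 in the ob/ob livers, with filled points in both.

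Among the D-type cyclins, which couple growth signals to CDK4 and CDK6, Ccnd1 rose in both designs. Ccnd1 stood at 5.03, 7.59 and 6.24 CPM in the fasted vector libraries, 10.2, 12.7 and 11 in fasted FH, 27.2, 14.1 and 21.5 in ob/ob vector and 71.2, 68.3 and 89.8 in ob/ob FH. No 2 groups overlapped, and the ob/ob FH libraries were at the top. The rise was 1.79-fold in the fasted livers (log2 fold change 0.84, SE 0.23, adjusted p = 0.00703) and 3.65-fold in the ob/ob livers (log2 fold change 1.87, SE 0.21, adjusted p = 1.3e-05). On library totals the ob/ob rise held (1.25, adjusted p = 0.000281) while the fasted value was 0.17 (adjusted p = 0.55). Ccnd2, another D cyclin, fell 2.19-fold in the fasted livers, from 8.86, 8.31 and 8.90 to 4.03, 4.08 and 3.80 CPM (log2 fold change -1.13, SE 0.20, adjusted p = 0.000314), and the 2 groups did not overlap. Ccnd2 in the ob/ob livers was at 7.01, 11.1 and 8.52 CPM with vector and 7.45, 10.6 and 8.54 CPM with FH, which overlapped (log2 fold change -0.01, SE 0.18, adjusted p = 0.982). Ccnd3 rose in both, from 22.1 ± 0.657 to 36.2 ± 9.14 CPM (SD, n = 3) and from 12.5 ± 1.55 to 21.7 ± 2.60 CPM, by 0.71 (SE 0.17) and 0.80 (SE 0.17) on the log2 scale (adjusted p = 0.00255 and 0.00137). Neither Ccnd3 rise was called on library totals (0.04 and 0.18).

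CDK4 and CDK6 are the kinases that D cyclins bind. Cdk4 was called in none of the 5 comparisons on the TMM scale. Its means were 32.7, 33.3, 28.4 and 28.8 CPM in fasted vector, fasted FH, ob/ob vector and ob/ob FH, with log2 FH effects of 0.03 (95% interval -0.23 to 0.28) and 0.02 (-0.23 to 0.27). On library totals these were -0.64 and -0.60 (adjusted p = 0.000471 and 0.000766). Cdk6 was at 21.5, 24.2 and 24.9 CPM in fasted vector and 24.3, 46.4 and 36.2 in fasted FH libraries, which overlapped. The rise (log2 fold change 0.60, SE 0.19, adjusted p = 0.0182) was -0.08 on library totals. It was not called without fasted vector replicate 1 or fasted FH replicate 2 (log2 0.38 to 0.49, adjusted p = 0.0862 to 0.108). In the ob/ob livers Cdk6 fell from 45.2, 39.6 and 50.6 to 27.5, 34.8 and 34.3 CPM (log2 fold change -0.49, SE 0.19, adjusted p = 0.0446). That fall was lost when any 1 of 8 libraries was left out, all but fasted vector replicate 1, fasted FH replicates 1 and 2 and ob/ob vector replicate 2 (log2 -0.56 to -0.38, adjusted p = 0.0593 to 0.147).

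The E and A cyclins, which drive S phase with CDK2, split as well. Ccne1 was scarce in the fasted vector libraries at 0.213, 0.478 and 0.0664 CPM and stood at 0.918, 1.54 and 1.02 with FH, a 4.38-fold rise without overlap (log2 fold change 2.13, SE 0.53, adjusted p = 0.00386). It rose in the ob/ob livers too, from 0.928, 0.578 and 0.732 to 1.14, 1.66 and 1.97 CPM (log2 fold change 1.09, SE 0.43, adjusted p = 0.0469). That call held only when 1 of fasted vector replicates 2 and 3 or ob/ob FH replicate 1 was the library left out (log2 0.89 to 1.29, adjusted p = 0.0541 to 0.174 otherwise). Ccna2 moved in opposite directions. Its level fell in the fasted livers from 0.284, 0.658 and 0.863 to 0, 0.267 and 0.161 CPM (log2 fold change -2.0, SE 0.64, adjusted p = 0.0173) and rose in the ob/ob livers from 1.45, 0.945 and 1.73 to 4.14, 3.59 and 3.75 CPM (log2 fold change 1.47, SE 0.40, adjusted p = 0.00705). The groups compared did not overlap. The fasted fall was lost without fasted vector replicate 3 (log2 -1.66, adjusted p = 0.0762), and the ob/ob rise was 0.85 on library totals (adjusted p = 0.0875). Ccne2 and Cdk2 fell in the ob/ob livers, from 2.84 ± 1.14 to 1.21 ± 0.470 and from 19.2 ± 1.61 to 13.1 ± 2.38 CPM, with log2 fold changes of -1.22 (SE 0.42) and -0.55 (SE 0.17) (adjusted p = 0.0254 and 0.0133). Leaving out ob/ob FH replicate 2 ended both calls, and leaving out ob/ob vector replicate 1 ended that of Ccne2 (log2 -0.93 to -0.84, adjusted p = 0.106 to 0.135 for Ccne2 and log2 -0.45, adjusted p = 0.0678 for Cdk2).

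Of the retinoblastoma gene and its E2F partners, E2f1, an activator of S phase genes, was the 1 of 3 called in an FH comparison. It rose 2.38-fold in the ob/ob livers, from 3.59, 1.89 and 2.93 to 6.93, 6.81 and 6.29 CPM (log2 fold change 1.25, SE 0.30, adjusted p = 0.00347), with no overlap, and was 0.63 on library totals (adjusted p = 0.103). None of the 3 was called in the fasted livers by edgeR, at an unadjusted p under 0.05 or by DESeq2. E2f1 was there at 0.993, 1.73 and 2.52 and 1.70, 2.87 and 2.30 CPM, which overlapped (log2 fold change 0.38, SE 0.34, adjusted p = 0.348). Rb1, the brake on E2F, and E2f8, a repressor of E2F targets, were not called in any of the 5 comparisons on the TMM scale, with FH effects of -0.09 (SE 0.19) and -0.41 (SE 0.19) for Rb1 and -0.36 (SE 0.30) and -0.58 (SE 0.28) for E2f8. On library totals both fell in both designs, with log2 values of -0.76 and -1.03 for Rb1 and -1.03 and -1.21 for E2f8, where the median gene shifted by -0.67 and -0.62.

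Most of the licensing and fork genes rose in the ob/ob livers. Of these 10 genes 9 rose there (25.8% of all genes) and 4 rose in the fasted livers (27.4% of all genes). None fell in either (27.9% and 27.6% of all genes), and the medians were 1.42 and 0.43. The 9 include Cdc6, which passed the filter on low counts only with the help of the ob/ob FH libraries. At an unadjusted p under 0.05 the falls were also 0 in both, and DESeq2 called 9 and 2 rises and 0 falls. On library totals the rises were 4 (Mcm3, Mcm5, Mcm6 and Mcm7) and 0 (6.83% and 7.16% of all genes). Their summed level was 33.2 to 40.4 CPM in fasted vector, 41.9 to 55.4 in fasted FH, 46.3 to 55.9 in ob/ob vector and 99.1 to 136 in ob/ob FH libraries, the last above all others. On library totals these sums were 39.6 to 46.2, 31.0 to 40.0, 62.2 to 76.7 and 81.7 to 123 CPM.

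All 6 genes of the MCM2-7 helicase rose with FH in the ob/ob livers, by 1.47 (Mcm2), 1.59 (Mcm3), 1.17 (Mcm4), 1.99 (Mcm5), 1.74 (Mcm6) and 1.06 (Mcm7) on the log2 scale, and Mcm2 and Mcm4 were not called on library totals. Mcm5 was at 3.25, 1.78 and 2.82 CPM with vector and 7.97, 11.6 and 11.7 with FH, a 3.98-fold rise (log2 fold change 1.99, SE 0.29, adjusted p = 9.4e-05). Mcm6, whose promoter carries the E2F matches above, was at 6.03, 5.15 and 5.18 and 14.7, 16.3 and 23.4 CPM, a 3.33-fold rise (log2 fold change 1.74, SE 0.20, adjusted p = 1.49e-05). In neither gene did the groups overlap. Mcm2 was uneven among the ob/ob vector libraries, at 6.49, 1.63 and 6.43 CPM, with replicate 2 the lowest, and at 10.2, 14.5 and 15.7 CPM with FH (log2 fold change 1.47, SE 0.39, adjusted p = 0.00639). Its rise was 1.47 with and 1.07 without that library, which was still called.

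In the fasted livers Mcm5 rose from 0.638, 1.31 and 0.531 to 1.70, 1.54 and 2.14 CPM without overlap (log2 fold change 1.09, SE 0.37, adjusted p = 0.0213), and this call was lost without fasted vector replicate 1, fasted vector replicate 3 or fasted FH replicate 3 (log2 0.87 to 0.94, adjusted p = 0.0781 to 0.0894). Mcm6 rose there from 2.77, 1.91 and 2.26 to 3.25, 3.14 and 3.91 CPM (log2 fold change 0.58, SE 0.23, adjusted p = 0.0462), but was -0.09 on library totals. Its call was kept only when fasted vector replicate 1 or an ob/ob vector library was the one left out (log2 0.47 to 0.65, adjusted p = 0.0515 to 0.146 without any other). Mcm2, Mcm3, Mcm4 and Mcm7 were not called in the fasted livers, with log2 values of 1.04, 0.00, 0.07 and 0.35. The MCM loaders Cdt1 and Cdc6 both rose in the ob/ob livers. Cdt1 went from 1.39, 1.73 and 1.05 to 2.64, 3.85 and 4.32 CPM (log2 fold change 1.37, SE 0.33, adjusted p = 0.0031). Its fasted rise (log2 0.86, SE 0.35, adjusted p = 0.0493) was kept only without fasted FH replicate 1 or ob/ob vector replicates 2 or 3 (log2 0.48 to 0.97, adjusted p = 0.0558 to 0.281 without any other library). Cdc6, with an E2F match in the printed promoter, had 6, 8 and 4 counts with vector and 15, 24 and 29 with FH in the ob/ob libraries, beside 0 to 4 in each fasted library. That rise (log2 1.77, SE 0.56, adjusted p = 0.0159) was lost without ob/ob vector replicate 3 (log2 1.55, adjusted p = 0.0617). On library totals neither loader was called (0.76 and 1.17 in the ob/ob livers).

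At the fork, Pcna, the clamp that holds polymerase on DNA, was among the more abundant of the 10. It rose from 16.7, 12.6 and 14 to 19.4, 21.7 and 20.8 CPM in the fasted livers (log2 fold change 0.52, SE 0.14, adjusted p = 0.00561) and from 18, 18.3 and 17.1 to 22.6, 21.3 and 27.5 CPM in the ob/ob livers (log2 fold change 0.42, SE 0.13, adjusted p = 0.0178), but on library totals the values were -0.15 and -0.20. The ob/ob rise was lost without ob/ob FH replicate 3 (log2 0.28, adjusted p = 0.128). Gins2, a subunit of the active helicase, was not called with FH in either design (-0.78 (SE 0.71) and 0.70 (SE 0.48)), and it is the gene with the 2758 shared bases (with Gse1).

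All 3 genes of deoxynucleotide supply rose in the fasted livers (27.4% of all genes) and 2 of 3 in the ob/ob livers (25.8% of all genes). On library totals 1 and 2 rose (7.16% and 6.83% of all genes). Rrm1, the large subunit of ribonucleotide reductase, was at 4.89, 5.20 and 2.85 CPM in fasted vector, 8.41, 11.7 and 11.9 in fasted FH, 10.9, 8.35 and 10.2 in ob/ob vector and 18.2, 22.3 and 26.6 in ob/ob FH libraries. The FH libraries lay above their vector libraries in both designs. The rises were of similar size, 2.47-fold (log2 fold change 1.3, SE 0.23, adjusted p = 0.000389) and 2.28-fold (log2 fold change 1.19, SE 0.22, adjusted p = 0.000456), and both held on library totals (0.64, adjusted p = 0.0289, and 0.57, adjusted p = 0.0351). Rrm2, the cell cycle-regulated small subunit, was at 4.04, 3.65 and 4.38 CPM in fasted vector, 6.08, 7.82 and 5.19 in fasted FH, 5.33, 3.67 and 3.45 in ob/ob vector and 13.7, 14.2 and 20.3 in ob/ob FH. Its ob/ob rise of 3.87-fold (log2 fold change 1.95, SE 0.22, adjusted p = 1.41e-05) held on library totals (1.34, adjusted p = 0.000406). Its fasted rise (log2 0.66, SE 0.23, adjusted p = 0.0276) was -0.01 on library totals and was lost without fasted vector replicate 1 or 2 or fasted FH replicate 2 (log2 0.49 to 0.61, adjusted p = 0.0751 to 0.117). Tyms, thymidylate synthase, rose in the fasted livers from 6.03, 3.23 and 3.65 to 6.22, 6.28 and 6.53 CPM (log2 fold change 0.57, SE 0.22, adjusted p = 0.0443), but was -0.10 on library totals. It kept its call only without fasted vector replicate 1 or any ob/ob vector library (log2 0.41 to 0.59, adjusted p = 0.0504 to 0.152 without any other). Tyms in the ob/ob livers was at 7.88, 6.09 and 8.00 and 10.6, 9.05 and 11 CPM, which did not overlap, and was not called (log2 0.48, SE 0.21, adjusted p = 0.0664).

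The calls among the 15 mitosis genes were falls in the fasted livers and mostly rises in the ob/ob livers. In the fasted livers 5 fell with FH (Foxm1, Ccnb1, Birc5, Cenpa and Kif11) and none rose, where 27.6% of all genes fell and 27.4% rose. In the ob/ob livers 11 rose and 1 (Cenpa) fell, where 25.8% and 27.9% of all genes did. The 5 falls of 15 were not far above the share of all genes. The 11 rises include Aurkb and Plk1, which passed the filter on low counts only with the help of the ob/ob FH libraries. At an unadjusted p under 0.05 edgeR gave 1 rise and 6 falls in the fasted livers, and DESeq2 called 0 and 5. The medians were -1.04 and 1.37 on the log2 scale. On library totals 10 fell and 0 rose in the fasted livers (55.7% and 7.16% of all genes), and 7 rose and 1 fell in the ob/ob livers (6.83% and 53.3%). Their summed level was 17.8 to 21.3 CPM in fasted vector, 8.55 to 12.4 in fasted FH, 31.9 to 39.1 in ob/ob vector and 60.4 to 71.6 in ob/ob FH libraries, with no overlap between any 2 groups. On library totals the sums were 20.3 to 26.2, 6.33 to 9.05, 43.8 to 52.5 and 49.8 to 65.0 CPM, where the 2 ob/ob groups overlapped.

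Foxm1, the transcription factor that drives mitotic genes, had 7, 8 and 7 counts in the fasted vector libraries and 1, 2 and 1 in the fasted FH libraries, which are deeper. In the ob/ob libraries it had 11, 20 and 23 counts with vector and 48, 45 and 59 with FH. On the CPM scale it fell from 0.480 ± 0.0158 to 0.0859 ± 0.0421 (SD, n = 3) in the fasted livers and rose from 0.964 ± 0.292 to 2.53 ± 0.218 in the ob/ob livers, with no overlap in either. The changes were log2 -2.42, SE 0.53, adjusted p = 0.00182, and log2 1.38, SE 0.32, adjusted p = 0.00235. Its fasted value was -3.05 on library totals, and its ob/ob rise missed the threshold there (0.77, adjusted p = 0.0509). Ccnb1, the cyclin of CDK1 at mitotic entry, had 6, 11 and 7 counts in fasted vector and 2, 3 and 0 in fasted FH libraries. With 0.986, 1.05 and 1.67 CPM in ob/ob vector and 4.19, 5.82 and 3.99 CPM in ob/ob FH libraries, its groups were separate in both designs. It fell 4.66-fold in the fasted livers (log2 fold change -2.22, SE 0.65, adjusted p = 0.0107) and rose 3.75-fold in the ob/ob livers (log2 fold change 1.91, SE 0.37, adjusted p = 0.000788), on library totals as well (-2.85 and 1.29, adjusted p = 0.00177 and 0.00937). Birc5, survivin, which serves the chromosomal passenger complex, was at 2.55, 3.41 and 4.32 CPM in fasted vector and 0.918, 0.735 and 0.910 in fasted FH libraries. It fell 3.98-fold there (log2 fold change -1.99, SE 0.33, adjusted p = 0.000218). In ob/ob livers Birc5 rose from 1.91, 1.10 and 1.67 to 2.17, 2.5 and 3.66 CPM (log2 fold change 0.83, SE 0.30, adjusted p = 0.0328), a call absent on library totals (0.22) and lost when 1 of ob/ob vector replicates 2 and 3 and ob/ob FH replicate 3 was left out (log2 0.56 to 0.90, adjusted p = 0.0506 to 0.183).

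**Figure D3:**
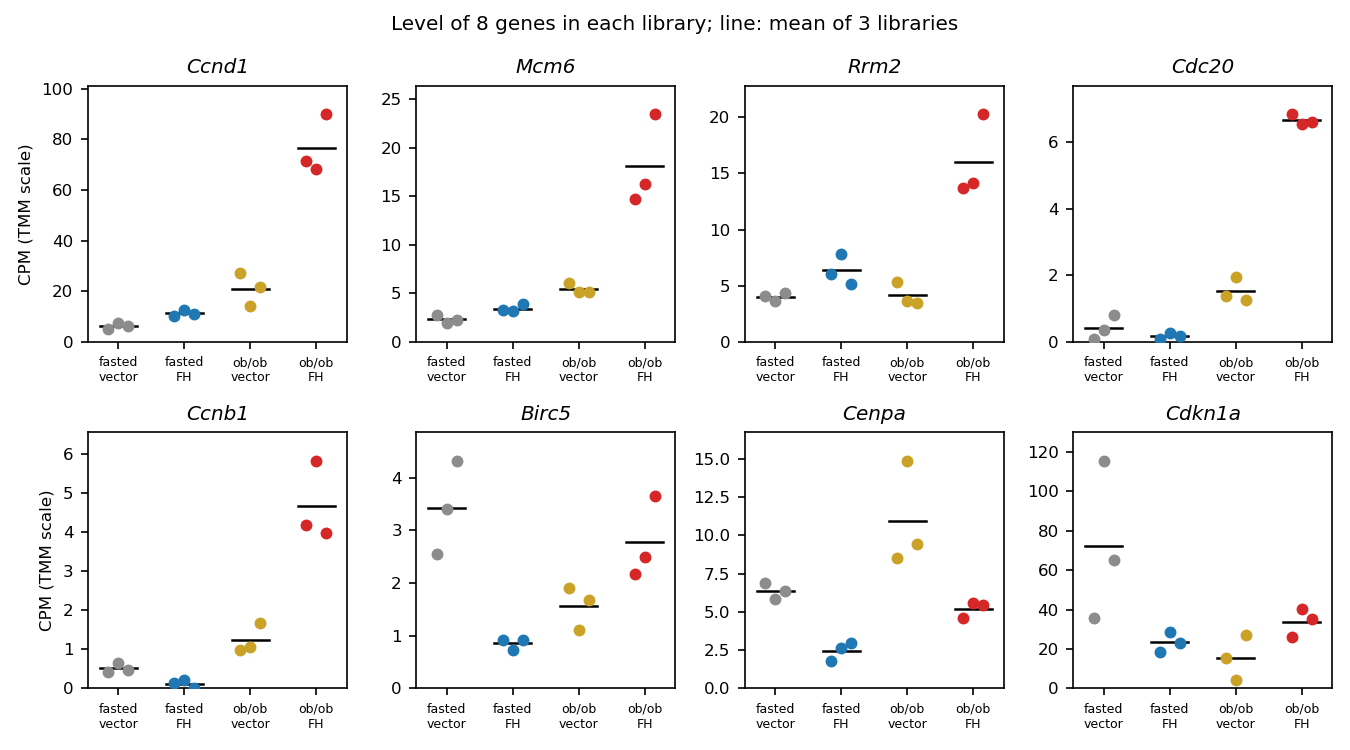
CPM on the TMM scale of Ccnd1, Mcm6, Rrm2, Cdc20, Ccnb1, Birc5, Cenpa and Cdkn1a in every library, by group (3 points each), with a line at each group mean. The ob/ob FH libraries are highest for Ccnd1, Mcm6, Rrm2, Cdc20 and Ccnb1, while the means of Birc5 and Cdkn1a are highest in fasted vector and that of Cenpa in ob/ob vector libraries.

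Other genes of mitotic entry and progression rose in the ob/ob livers and were not called in the fasted livers, which is not by itself a difference between the designs. Cdc20, the activator of the anaphase-promoting complex whose promoter is printed above, was at 0.0709, 0.359 and 0.797 CPM in fasted vector, 0.0707, 0.267 and 0.161 in fasted FH, 1.39, 1.94 and 1.25 in ob/ob vector and 6.83, 6.55 and 6.61 in ob/ob FH libraries. The ob/ob FH libraries were tight and far above all others, and the fasted groups overlapped. Its ob/ob rise was 4.34-fold (log2 fold change 2.12, SE 0.38, adjusted p = 0.000398) and held on library totals (1.5, adjusted p = 0.005), while the fasted value was log2 -1.27, SE 0.67, adjusted p = 0.121. Cdk1, the mitotic kinase itself, went from 2.44, 2.10 and 1.88 to 5.49, 5.36 and 7.22 CPM in the ob/ob livers (log2 fold change 1.49, SE 0.29, adjusted p = 0.000719) and was -0.47 (adjusted p = 0.232) in the fasted livers. The Aurora kinases both rose in the ob/ob livers. Aurka, of the spindle poles, went from 3.07, 2.99 and 2.51 to 8.07, 6.24 and 7.13 CPM (log2 fold change 1.32, SE 0.23, adjusted p = 0.000354). Aurkb, of the passenger complex, went from 8, 8 and 11 to 32, 40 and 52 counts (log2 fold change 2.07, SE 0.47, adjusted p = 0.00218) and had 0 to 6 counts in each fasted library. Plk1, the Polo kinase, had 7, 11 and 4 counts with vector and 34, 44 and 57 with FH in the ob/ob libraries (log2 fold change 2.48, SE 0.54, adjusted p = 0.00172), beside 1, 0 and 4 and 0, 1 and 2 in the fasted ones. Kif20a, a kinesin of cytokinesis, went from 0.928, 1.42 and 1.10 to 3.62, 4.11 and 3.38 CPM (log2 fold change 1.68, SE 0.29, adjusted p = 0.00031). These 6 rises held on library totals, where they ranged from 0.69 (Aurka) to 1.87 (Plk1).

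Ccnb2, another B cyclin, and Top2a, the topoisomerase that untangles sister chromatids, rose in the ob/ob livers (log2 1.37, SE 0.44, adjusted p = 0.0172, and log2 1.15, SE 0.38, adjusted p = 0.0213). Neither was called on library totals (0.75 and 0.54). The Ccnb2 rise was lost when 1 of ob/ob vector replicates 1 and 3 and ob/ob FH replicate 1 was left out (log2 1.19 to 1.3, adjusted p = 0.0525 to 0.0598) and that of Top2a without ob/ob FH replicate 3 (log2 0.94, adjusted p = 0.104). Mki67, the proliferation marker Ki-67, was called in neither design with FH. Its levels were 0.638, 2.21 and 1.13 CPM in fasted vector, 0.777, 0.601 and 0.589 in fasted FH, 3.42, 3.67 and 5.07 in ob/ob vector and 4.81, 7.75 and 7.64 in ob/ob FH libraries. Vector and FH overlapped in both designs (log2 -1.04, SE 0.43, adjusted p = 0.055, and log2 0.73, SE 0.32, adjusted p = 0.0703). Kif11, the kinesin of spindle bipolarity, fell in the fasted livers from 1.13, 0.897 and 1.66 to 0.707, 0.802 and 0.535 CPM (log2 fold change -0.85, SE 0.34, adjusted p = 0.0468). That call was kept only without fasted vector replicate 2 or ob/ob FH replicate 1 or 3 (log2 -0.98 to -0.56, adjusted p = 0.0509 to 0.214 without any other library). Bub1, a checkpoint kinase, had 2, 3 and 1 counts in fasted vector, 0, 1 and 0 in fasted FH, 10, 8 and 19 in ob/ob vector and 8, 14 and 17 in ob/ob FH libraries and was called with FH in neither design.

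Cenpa, the histone H3 variant that marks centromeres, fell in both designs, the 1 mitosis gene called lower in the ob/ob livers. It stood at 6.88, 5.86 and 6.38 CPM in fasted vector, 1.77, 2.60 and 2.94 in fasted FH, 8.52, 14.9 and 9.41 in ob/ob vector and 4.61, 5.56 and 5.44 in ob/ob FH libraries. In both designs every FH library was below every vector library. It fell 2.59-fold (log2 fold change -1.37, SE 0.25, adjusted p = 0.000449) and 2.10-fold (log2 fold change -1.07, SE 0.23, adjusted p = 0.00149), and on library totals by -2.04 and -1.69. The printed Cenpa promoter has CHR and CCAAT matches as those of Cdc20 and Ccnb1 do, and the levels of these genes moved the other way in the ob/ob livers.

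Macrophage and endothelial markers were lower with FH in the fasted livers on both scales, as was the summed level of the mitosis genes. The ob/ob values of these lists depended on the scale. The fasted mitosis sum went from a mean of 19.85 to 10.84 CPM, mostly through Cenpa (6.37 to 2.44) and Birc5 (3.43 to 0.8545). Aurka and Kif20a were not lower (2.055 to 3.10 and 0.396 to 0.429), and Cenpa also fell in the ob/ob livers. Of all genes 27.6% fell in the fasted and 25.8% rose in the ob/ob livers (55.7% and 6.83% on library totals). Among 14 markers of Kupffer cells and macrophages, 12 were called lower with FH in the fasted livers and 11 were called higher in the ob/ob livers, and on library totals 13 fell in the fasted, and 4 rose and 1 fell in the ob/ob livers. The summed level was 547 to 774 CPM in fasted vector, 298 to 324 in fasted FH, 396 to 597 in ob/ob vector and 790.3 to 1080 in ob/ob FH libraries. On library totals it was 625 to 870.2, 221 to 237, 543 to 802 and 652 to 960.0 CPM, where the 2 ob/ob groups overlapped. All 13 markers of sinusoidal endothelium fell in the fasted livers, and 7 rose and 1 fell in the ob/ob livers, with sums of 499 to 595, 244 to 295, 325 to 424 and 492 to 577 CPM in the same order of groups. On library totals all 13 again fell in the fasted livers, but 3 rose and 5 fell in the ob/ob livers, with sums of 570.0 to 717, 179 to 219, 446 to 559 and 406 to 524 CPM, where the ob/ob groups overlapped. Of 12 stellate cell markers, 3 fell in the fasted livers and 7 rose and 1 fell in the ob/ob livers (sums 445 to 500.5, 229 to 421, 390.1 to 450.1 and 565 to 686 CPM). On library totals 9 fell in the fasted, and 4 rose and 2 fell in the ob/ob livers (sums 499.6 to 572, 168 to 304, 524 to 594 and 466 to 622 CPM). Of 14 lymphocyte markers, 1 fell in the fasted livers, and 2 rose and 1 fell in the ob/ob livers (sums 11.1 to 18.6, 8.22 to 9.05, 16.2 to 28.1 and 28.5 to 41.2 CPM). On library totals 10 fell in the fasted and 2 in the ob/ob livers (sums 12.7 to 20.9, 6.02 to 6.53, 22.3 to 37.8 and 23.5 to 36.6 CPM).

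The summed level of the neutrophil and myeloid precursor markers was 9.51 to 13.7 CPM in fasted vector, 10.7 to 18.2 in fasted FH, 15.6 to 40.3 in ob/ob vector and 76.3 to 147 in ob/ob FH libraries. Most of the ob/ob FH sum was Lcn2, which hepatocytes can also make, at 57.95, 111.1 and 121.4 CPM there and 2.13 to 21.9 CPM in the other 9 libraries. On library totals the sums were 10.7 to 16.8, 7.73 to 13.5, 20.9 to 53.2 and 62.9 to 133 CPM. Of the 10 markers, 5 were tested, and 2 fell in the fasted and 4 rose in the ob/ob livers. On library totals 2 fell in the fasted, and 1 rose and 1 fell in the ob/ob livers. Ngp, a granule protein of neutrophil precursors, had 0 to 1 counts in each of the 9 other libraries and 13, 56 and 62 in ob/ob FH, and Mpo had 0 to 1 counts and 7, 11 and 2. Cebpe of the same list went the other way, with 208, 158 and 234 counts in ob/ob vector and 135, 151 and 164 in the deeper ob/ob FH libraries. Elane (2, 2 and 4 counts, then 7, 9 and 2) and Prtn3 (0, 5 and 1, then 11, 9 and 6) were near the floor in these groups. No cholangiocyte marker of 5 tested was called in either FH comparison by edgeR, at an unadjusted p under 0.05 or by DESeq2, and 2 fell in the fasted livers on library totals. The 8 erythroid markers tested gave 2 rises and 3 falls in the fasted and 1 rise and 1 fall in the ob/ob livers, and on library totals 3 falls, and 1 rise and 4 falls. Of 10 hepatocyte markers 9 and 8 rose, 6 and 4 on library totals, with sums of 66110 to 87590, 119300 to 132600, 67840 to 81690 and 127100 to 141700 CPM on library totals in the same order of groups. Most of each sum was Alb, at 37040 to 50680, 78960 to 89740, 44750 to 55680 and 97360 to 110800 CPM. On library totals Apoa1 (5122 to 7132 and 4856 to 5701 CPM) and Apob (3450 to 4560 and 3474 to 4199 CPM) overlapped between ob/ob vector and ob/ob FH. The part that shifts in other cell types have in the levels of the mitosis and licensing genes was not tested.

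**Figure D4:**
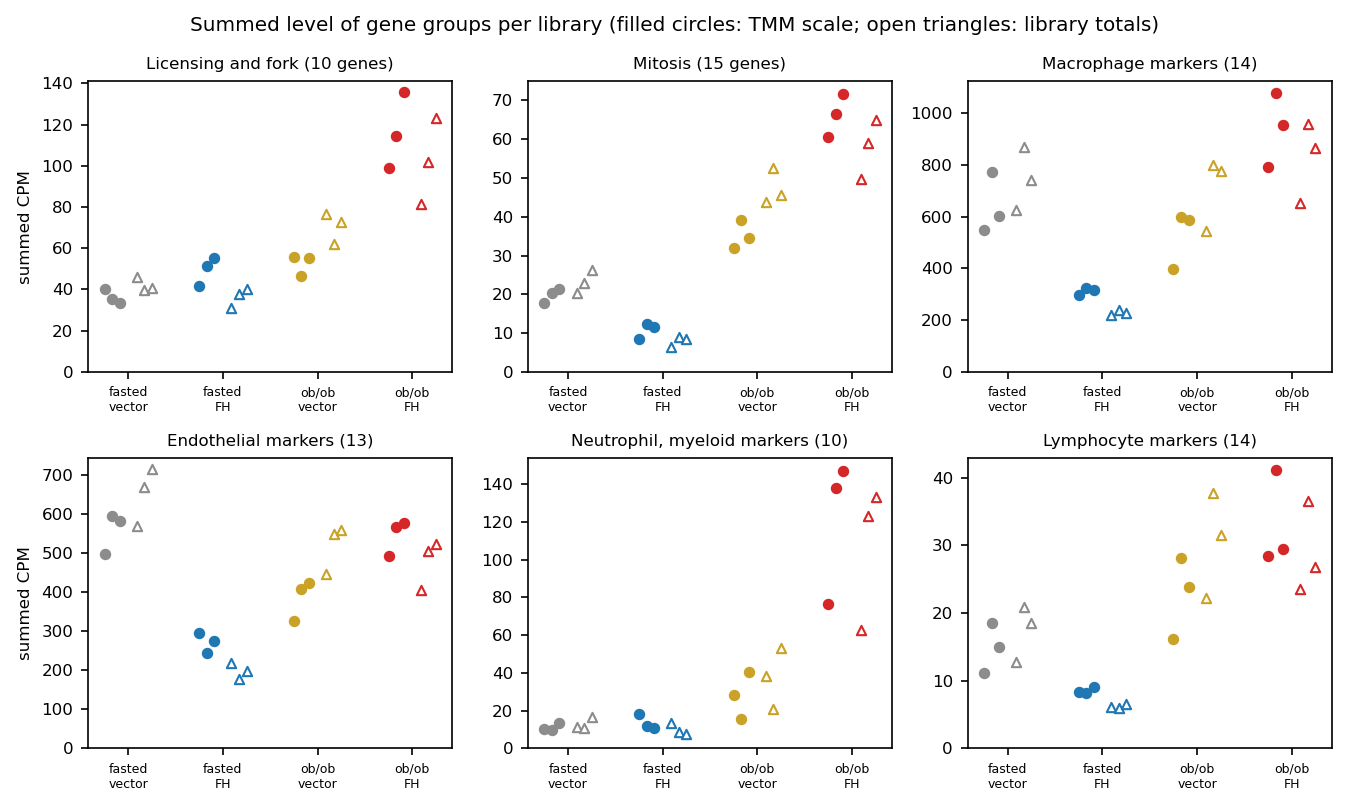
Summed CPM per library of the 10 licensing and fork genes, the 15 mitosis genes and the marker lists of macrophages, endothelium, neutrophils and lymphocytes, by group, with filled circles for TMM scaling and open triangles for library totals. On the TMM scale the mitosis and macrophage sums are both lowest in the fasted FH and highest in the ob/ob FH libraries, and most of the neutrophil sum in the latter is Lcn2.

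The CDK inhibitors that hold cells out of the cycle did not move together. Cdkn1a, which encodes p21, varied widely among libraries of the same group. It stood at 35.5, 116 and 65.1 CPM in fasted vector, 18.4, 28.7 and 23.0 in fasted FH, 15.2, 4.46 and 27.1 in ob/ob vector and 25.8, 40.2 and 35.0 in ob/ob FH libraries. Replicate 2 was the highest in fasted vector and the lowest in ob/ob vector. It fell 3.08-fold in the fasted livers (log2 fold change -1.62, SE 0.49, adjusted p = 0.0126), which depended on fasted vector replicate 2 and fasted FH replicate 1 (log2 -1.47 to -1.09, adjusted p = 0.0526 to 0.0814 without either one). It was not called in the ob/ob livers (log2 1.11, SE 0.49, adjusted p = 0.0716). Cdkn1b, p27, fell in the fasted livers from 55.7, 43.6 and 50 to 37.3, 31.3 and 28.4 CPM (log2 fold change -0.62, SE 0.15, adjusted p = 0.00311) and was at 37.5, 47.1 and 36.8 and 33.0, 28.8 and 36.5 CPM in the ob/ob livers (log2 -0.31, SE 0.15, adjusted p = 0.0965). Cdkn2c, p18, which blocks CDK4 and CDK6, rose in the ob/ob livers from 7.77, 6.14 and 8.63 to 11.5, 12.1 and 13.9 CPM without overlap (log2 fold change 0.73, SE 0.17, adjusted p = 0.00271), and was 0.11 on library totals (adjusted p = 0.6).

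Whether the FH effect differed between the designs was tested directly. The log2 effect in ob/ob livers was higher than in fasted livers for 13 of the 43 genes and lower for 1 (Cdk6), where 4.77% and 3.65% of all genes were. On library totals the counts were 12 and 1, beside 4.74% and 2.37% of all genes. This test uses the same libraries as both FH comparisons. Aurkb, which is among the 13, passed the filter on low counts only with the help of the ob/ob FH libraries. Among the 13, Ccnb1 (log2 4.13, SE 0.74, adjusted p = 0.00594), Foxm1 (log2 3.80, SE 0.62, adjusted p = 0.0039) and Ccna2 (log2 3.48, SE 0.75, adjusted p = 0.0145) differed the most. Aurkb (log2 3.39, SE 0.94, adjusted p = 0.0404), Cdc20 (log2 3.38, SE 0.76, adjusted p = 0.017) and Birc5 (log2 2.83, SE 0.45, adjusted p = 0.00344) came next. For Ccna2, Foxm1, Ccnb1 and Birc5 these come, on the TMM scale, from a fall in fasted and a rise in ob/ob livers. On library totals, of these genes only Ccnb1 was called higher with FH in the ob/ob livers. Cdk1 (log2 1.97, SE 0.43, adjusted p = 0.0156), Rrm2 (log2 1.3, SE 0.32, adjusted p = 0.0258) and Mcm6 (log2 1.16, SE 0.31, adjusted p = 0.0347) had larger effects in the ob/ob livers. Ccnd2 (log2 1.12, SE 0.27, adjusted p = 0.0222), Kif11 (log2 1.55, SE 0.44, adjusted p = 0.0468), Cdkn1a (log2 2.73, SE 0.69, adjusted p = 0.0292) and Cdkn2c (log2 0.92, SE 0.24, adjusted p = 0.0353) were the other 4. Kif11 was not called on library totals (1.62, adjusted p = 0.059).

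Of these 14 differences, those of Ccna2, Foxm1, Ccnb1, Cdk1 and Birc5 were called whichever single library was left out. The 13 higher effects became 5 when fasted vector replicate 3 was left out, 7 without fasted FH replicate 1 or ob/ob FH replicate 2 or 3, and 8 without ob/ob vector replicate 1, and became 14 without ob/ob vector replicate 2. Cdc20 was lost without fasted vector replicate 3 (log2 2.53, adjusted p = 0.0839). Ccnd2 was lost without that library, without ob/ob vector replicate 1 and without ob/ob FH replicate 2 (log2 0.98 to 1.11, adjusted p = 0.0506 to 0.0686), and Rrm2 without fasted vector replicate 3, fasted FH replicate 1 or 3 or ob/ob FH replicate 3 (log2 1.14 to 1.27, adjusted p = 0.0548 to 0.0642). The other 6 were lost in 8 to 10 of the 12 fits. Mcm6 was kept only in the 4 fits that left out replicate 2 of either vector group, fasted FH replicate 3 or ob/ob FH replicate 1, Aurkb only without replicate 2 of fasted vector or of ob/ob vector, and Kif11 only without fasted vector replicate 2 or ob/ob FH replicate 1. Cdkn1a and Cdkn2c were kept only in the fits that left out ob/ob FH replicate 1, replicate 2 or 3 of ob/ob vector and, for Cdkn1a, fasted vector replicate 1 or, for Cdkn2c, fasted FH replicate 2. Cdk6 was kept only without fasted FH replicate 1 or replicate 2 or 3 of ob/ob vector. Where lost, Mcm6 gave log2 0.97 to 1.23, adjusted p = 0.0508 to 0.0806, Aurkb log2 2.68 to 3.82, adjusted p = 0.0501 to 0.165 and Kif11 log2 1.28 to 1.69, adjusted p = 0.0573 to 0.116. Cdkn1a gave log2 2.21 to 2.90, adjusted p = 0.0552 to 0.0749, Cdkn2c log2 0.79 to 0.97, adjusted p = 0.0519 to 0.0868 and Cdk6 log2 -1.15 to -0.85, adjusted p = 0.0505 to 0.0772. Ccnd1, which rose in both designs, was log2 1.03, SE 0.31, adjusted p = 0.0562, and Rrm1 was -0.11 (95% interval -0.79 to 0.56).

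The designs also differed in the livers without FH. Between the vector groups 15 of the 43 genes were higher in ob/ob than in fasted livers and 3 were lower, where 9.36% and 8.18% of all genes were. On library totals 20 were higher and 2 lower (17.9% and 4.21% of all genes). Higher among the entry and licensing genes were Ccnd1 (3.31-fold, log2 fold change 1.73, SE 0.23, adjusted p = 0.000275), Mcm5 (3.09-fold, log2 fold change 1.63, SE 0.35, adjusted p = 0.00658) and Mcm6 (2.36-fold, log2 fold change 1.24, SE 0.22, adjusted p = 0.00222). Higher too were Rrm1 (2.27-fold, log2 fold change 1.18, SE 0.23, adjusted p = 0.00387), Mki67 (3.00-fold, log2 fold change 1.59, SE 0.36, adjusted p = 0.00901) and Top2a (4.37-fold, log2 fold change 2.13, SE 0.46, adjusted p = 0.00656). Cdk6, Kif20a, Cdk2, Mcm2, Tyms, Ccnb2, Bub1, Cdc20 and Cenpa were the others. The 3 lower genes were Cdkn1a (4.62-fold, log2 fold change -2.21, SE 0.50, adjusted p = 0.00891), Birc5 (2.19-fold, log2 fold change -1.13, SE 0.31, adjusted p = 0.0216) and Ccnd3 (1.77-fold, log2 fold change -0.83, SE 0.17, adjusted p = 0.00501). Birc5 was not called on library totals (-0.93). The 15 became 9 without fasted vector replicate 2 or 3, and a fit of the vector groups alone called 7 higher and 1 lower. Without ob/ob vector replicate 2 the counts were 16 and 2.

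Several of these calls rest on few libraries and are given without the library that moves them. Leaving out fasted vector replicate 2 ended Cdk2, Mcm2, Tyms, Ccnb2, Birc5, Bub1, Cdc20 and Cenpa, and leaving out fasted vector replicate 3 ended the same genes except Cdc20. The values where the call was lost were log2 0.49 to 0.63, adjusted p = 0.0622 to 0.105 for Cdk2, log2 1.64 to 1.84, adjusted p = 0.05 to 0.058 for Mcm2, log2 0.60 to 0.72, adjusted p = 0.0853 to 0.109 for Tyms and log2 1.2 to 1.81, adjusted p = 0.0581 to 0.124 for Ccnb2. For Birc5 they were log2 -1.19 to -0.93, adjusted p = 0.0519 to 0.0948, for Bub1 log2 1.88 to 2.61, adjusted p = 0.0561 to 0.116, for Cdc20 log2 1.78, adjusted p = 0.0629 and for Cenpa log2 0.50 to 0.84, adjusted p = 0.0512 to 0.107. Other single libraries that ended a call were ob/ob vector replicate 1 (Mcm2, Tyms, Ccnb2 and Bub1), replicate 2 (Ccnb2, Birc5 and Cenpa) and replicate 3 (Cdk2, Tyms, Birc5 and Bub1), fasted vector replicate 1 (Ccnb2, Bub1 and Cenpa), and, for Ccnb2, fasted FH replicate 2 and each ob/ob FH library.

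Between the FH groups, which share their libraries with the FH comparisons above, 32 of the 43 genes were higher in ob/ob than in fasted livers and 1, Ccnd3, was lower (log2 -0.74, SE 0.17, adjusted p = 0.00338). Of all genes 18.6% were higher and 21.6% lower. On library totals 34 were higher and 1 lower (26.5% and 9.7% of all genes). All 15 mitosis genes were among them, with a median log2 difference of 3.72. Cdc20 lay at 0.0707 to 0.267 CPM in fasted FH and 6.55 to 6.83 CPM in ob/ob FH libraries (log2 5.26, SE 0.51, adjusted p = 1.3e-05), and Foxm1 and Ccnb1 differed by log2 4.80, SE 0.45, adjusted p = 1.03e-05, and log2 5.37, SE 0.53, adjusted p = 1.4e-05. Top2a differed by log2 3.98, SE 0.48, adjusted p = 5.86e-05, Mki67 by log2 3.36, SE 0.39, adjusted p = 4.62e-05 and Ccna2 by log2 4.65, SE 0.55, adjusted p = 4.75e-05. Plk1 and Bub1 had 3 and 1 counts over the 3 fasted FH libraries and 135 and 39 over the ob/ob FH libraries. The 32 include Cdc6, Aurkb, Plk1 and Bub1. These passed the filter on low counts only with the help of the ob/ob FH libraries, so a higher level there was largely built in. Cdk2 and Tyms were called (log2 0.48, SE 0.17, adjusted p = 0.0406, and log2 0.69, SE 0.21, adjusted p = 0.0197). Both were lost without fasted FH replicate 1 or 2 or ob/ob FH replicate 3, and Cdk2 also without fasted vector replicate 3 (log2 0.35 to 0.52, adjusted p = 0.0523 to 0.156 for Cdk2 and log2 0.67 to 0.68, adjusted p = 0.0535 to 0.0571 for Tyms). Sex is confounded with the design here, as the ob/ob FH libraries are those with Xist.

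Beyond the 43 genes, wider lists of the same pathways were read in the same way, against 27.4% of all genes higher and 27.6% lower in the fasted and 25.8% and 27.9% in the ob/ob livers. On library totals those shares were 7.16% and 55.7%, and 6.83% and 53.3%. Of 47 other replication genes, 12 rose and 10 fell in the fasted livers and 12 rose and 11 fell in the ob/ob livers, with medians of 0.25 and 0.01, near the shares of all genes. On library totals 1 rose and 21 fell in the fasted, and 5 rose and 23 fell in the ob/ob livers. Rpa2, of the single-strand binding complex, rose in the fasted livers (log2 1.18, SE 0.23, adjusted p = 0.000677). So did Chaf1b, of chromatin assembly factor 1 (log2 1.10, SE 0.40, adjusted p = 0.032), which was lost without any fasted vector library or fasted FH replicate 2 or 3 (log2 0.94 to 1.18, adjusted p = 0.0591 to 0.106). Neither was called on library totals (0.51 and 0.42). The chromatin remodeller Hells fell there (log2 -2.08, SE 0.40, adjusted p = 0.000683). In the ob/ob livers Uhrf1, which carries DNA methylation through replication, and Lig1, the ligase of Okazaki fragments, rose (log2 2.03, SE 0.39, adjusted p = 0.000777, and log2 1.54, SE 0.30, adjusted p = 0.00086), both also on library totals (1.43 and 0.93). Orc4, of the origin recognition complex, fell there (log2 -1.33, SE 0.12, adjusted p = 2.47e-06). Rrm2b, the p53-inducible small subunit of ribonucleotide reductase, fell in both designs (log2 -1.47, SE 0.23, adjusted p = 0.000161, and log2 -1.41, SE 0.23, adjusted p = 0.000189), unlike its partner genes Rrm1 and Rrm2.

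Of 47 other genes of mitosis and cytokinesis, 2 rose and 15 fell in the fasted livers, and 17 rose and 4 fell in the ob/ob livers (medians -0.84 and 0.82). On library totals 0 rose (also 0 at an unadjusted p under 0.05) and 28 fell in the fasted livers, and 8 rose and 7 fell in the ob/ob livers. In the test of the difference, the FH effect was higher in ob/ob livers for 14 of 47, where 4.77% of all genes were. It was lower for 0 (1 at an unadjusted p under 0.05), where 3.65% of all genes were. On library totals the counts were also 14 and 0 (4.74% and 2.37% of all genes). Kif23 and Kif22, kinesins of the midzone and of chromosome arms, fell in the fasted livers, Kif23 from libraries at 1.21 to 1.44 CPM to libraries at 0.0536 to 0.200 CPM (log2 -3.29, SE 0.48, adjusted p = 8.1e-05) and Kif22 from 0.478 to 1.46 CPM down into 0.107 to 0.200 CPM (log2 -2.70, SE 0.53, adjusted p = 0.000805). The 2 that rose, Pttg1 and Bub3, were log2 0.54, SE 0.14, adjusted p = 0.00569, and log2 0.53, SE 0.13, adjusted p = 0.00328, and were -0.13 and -0.14 on library totals. In the ob/ob livers Ube2c, the ubiquitin-conjugating enzyme of the anaphase-promoting complex, and Tpx2, the activator of Aurora A, rose (log2 2.34, SE 0.44, adjusted p = 0.000593, and log2 2.34, SE 0.31, adjusted p = 4.08e-05), also on library totals (1.73 and 1.72). Smc4, of condensin, and Fbxo5, the inhibitor of the anaphase-promoting complex, fell there (log2 -0.97, SE 0.14, adjusted p = 6.05e-05, and log2 -1.21, SE 0.42, adjusted p = 0.0246), and Fbxo5 was lost when 1 of replicates 1 and 2 of ob/ob vector and 1 and 3 of ob/ob FH was left out (log2 -1.13 to -0.97, adjusted p = 0.0544 to 0.0899).

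Of 15 pocket protein, E2F and DREAM complex genes, 2 rose and 1 fell in the fasted and 2 rose and 3 fell in the ob/ob livers. On library totals 11 and 12 fell and 0 rose, with 0 rises also at an unadjusted p under 0.05. Mybl2, which works with FOXM1 on G2 genes, fell in the fasted livers (log2 -2.21, SE 0.51, adjusted p = 0.00256). Tfdp2 and Tfdp1 rose there (log2 0.46, adjusted p = 0.0465, and log2 0.39, adjusted p = 0.0202), and were -0.21 and -0.28 on library totals. E2f5, a repressor E2F, fell in the ob/ob livers (log2 -0.84, SE 0.21, adjusted p = 0.00429). Rbl1, the pocket protein p107, rose there (log2 0.77, SE 0.24, adjusted p = 0.0167), a call absent on library totals (0.15) and lost without ob/ob FH replicate 3 (log2 0.58, adjusted p = 0.1). E2f2 also rose there (log2 1.01, SE 0.39, adjusted p = 0.0423), lost on library totals (0.39) and when 1 of replicates 2 and 3 of either ob/ob group was left out (log2 0.83 to 0.94, adjusted p = 0.0874 to 0.14). Among the checkpoint kinases, Wee1, which holds CDK1 inactive, rose 12.6-fold in the fasted livers. Its libraries lay at 1.13 to 2.13 CPM with vector and 14.2 to 29.9 CPM with FH (log2 fold change 3.66, SE 0.56, adjusted p = 0.000126), a rise that held on library totals (3.00). It ran from 1.47 to 9.04 CPM in ob/ob vector and from 6.26 to 11.4 CPM in ob/ob FH libraries. Atm and Atr, the kinases of DNA damage signalling, fell in the ob/ob livers (log2 -1.34, SE 0.27, adjusted p = 0.00112, and log2 -1.0, SE 0.17, adjusted p = 0.00036). Of 12 checkpoint genes 4 fell there and 0 rose by edgeR (1 at an unadjusted p under 0.05 and 0 by DESeq2), and 1 rose and 1 fell in the fasted livers. On library totals 1 rose and 9 fell in the fasted and 5 fell in the ob/ob livers.

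Wee1 is also a target of the circadian clock, and clock genes differed between the libraries. Dbp, an output gene of the clock, was at 5.81, 2.39 and 4.38 CPM in fasted vector, 63.2, 45.8 and 48.0 in fasted FH, 35.6, 0.420 and 36.7 in ob/ob vector and 12.1, 16.3 and 37.0 in ob/ob FH libraries. Arntl, which encodes BMAL1, was at 19.9, 18.1 and 20.9, 3.75, 1.74 and 2.04, 4.35, 21.8 and 5.96 and 14.2, 10.3 and 4.92 CPM in the same order. In the fasted livers Dbp rose with FH (log2 3.65, SE 0.89, adjusted p = 0.00358) and Arntl fell (log2 -2.98, SE 0.56, adjusted p = 0.000587). Time of collection is not stated, and the part of these clock values in the levels of Wee1 and Cdkn1a was not tested.

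Of 20 genes of p53 and its targets, 5 rose and 4 fell in the fasted and 4 rose and 3 fell in the ob/ob livers. On library totals 7 and 11 fell and 0 rose in either, with 0 rises also at an unadjusted p under 0.05. Mdm4, a p53 inhibitor, fell in both (log2 -1.80, SE 0.17, adjusted p = 3.43e-06, and log2 -2.57, SE 0.17, adjusted p = 5.54e-07). Mdm2, the p53 ubiquitin ligase, fell in the ob/ob livers (log2 -1.27, SE 0.15, adjusted p = 2.11e-05). Of 17 subunits of the APC/C and SCF ubiquitin ligases, 5 rose and 4 fell in the fasted livers and 4 rose and 2 fell in the ob/ob livers, and on library totals 12 fell in each and 1 rose in the ob/ob livers. Skp2, the SCF receptor for p27, fell in both designs (log2 -1.57, SE 0.27, adjusted p = 0.000294, and log2 -1.03, SE 0.25, adjusted p = 0.00312). Anapc2, the cullin of the APC/C, rose in both (log2 0.98, SE 0.13, adjusted p = 3.89e-05, and log2 1.13, SE 0.13, adjusted p = 1.23e-05), on library totals in the ob/ob livers alone (0.30 and 0.51). Anapc7 rose in both (log2 0.82, adjusted p = 4.69e-05, and log2 0.84, adjusted p = 3.68e-05), in neither on library totals (0.15 and 0.22). Anapc10 fell in the fasted (log2 -0.72, adjusted p = 0.00757) and Cdc27 in the ob/ob livers (log2 -0.78, adjusted p = 0.00011). Of the other CDK inhibitor genes 3 were tested, and none was called in the fasted livers by edgeR, at an unadjusted p under 0.05 or by DESeq2, and 1 fell on library totals. All 3 rose in the ob/ob livers, 0 of them on library totals (also 0 at an unadjusted p under 0.05), among them Cdkn3 (log2 1.62, SE 0.46, adjusted p = 0.00938) and Cdkn1c, p57 (log2 1.26, SE 0.39, adjusted p = 0.015), which was lost without ob/ob FH replicate 1 (log2 1.15, adjusted p = 0.0519). Of 22 cyclins and CDKs of transcription and other roles, 3 rose and 9 fell in the fasted and 4 rose and 10 fell in the ob/ob livers. On library totals 1 rose and 19 fell in the fasted and 17 fell in the ob/ob livers. Ccnl1 and Ccnl2, the L cyclins linked to RNA splicing, fell in both designs, with log2 fold changes of -2.47 and -2.14 in fasted and -2.62 and -2.59 in ob/ob livers (adjusted p = 2e-06, 5e-06, 9.47e-07 and 1.64e-06). Cdk18 rose in both (log2 1.22, adjusted p = 9.99e-06, and log2 0.65, adjusted p = 0.0011), on library totals in the fasted livers alone (0.54 and 0.03). Ccni rose in the fasted (log2 0.80, adjusted p = 0.000218) and Ccnf in the ob/ob livers (log2 0.83, adjusted p = 0.000242). Neither was called on library totals (0.13 and 0.21).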

How the data were processed

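Poly(A) RNA libraries (Illumina Stranded mRNA Prep, 1 μg of total RNA) were made from liver, per the labels' protocols, and STAR 2.7.11a with GRCm39 is named in the submitters' processing notes. Counting tool, annotation and strand setting are not stated there. The deposited table holds raw counts per gene, with no normalization by the authors. Genes were kept by filterByExpr (10 counts, 15 in total), leaving 15228, scaled by TMM and tested with edgeR 4.0.16 (R 4.3.3), the quasi-likelihood F test in 1 model of the 4 groups with 8 residual degrees of freedom. P-values were adjusted by Benjamini-Hochberg over all genes tested. Each SE is the size of the log2 fold change divided by the square root of its F statistic, and is approximate. Intervals are 95%, are built on that SE and cover the fit's error. The model was tested on simulated data. Alternatives were scaling to library totals, no filter, DESeq2 1.42.0, the replicate number as a block, thinning to 12231828 counts, only the groups compared, and leaving out each library. The genes and lists were chosen with earlier results of these data known. Genes called in any comparison are given values, as are up to 2 rises and 2 falls per further list and FH comparison, if a group mean reached 1 CPM and the libraries compared did not overlap.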

Additional observations from a re-analysis of the deposited data

Results flagged for a closer look

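For 14 genes the FH effect differed between the designs in the test of the difference itself (edgeR, adjusted over all genes tested). On the log2 scale the ob/ob effect exceeded the fasted effect by 4.13 for Ccnb1, 3.80 for Foxm1, 3.48 for Ccna2, 3.39 for Aurkb, 3.38 for Cdc20, 2.83 for Birc5 and 2.73 for Cdkn1a. It exceeded it by 1.97 for Cdk1, 1.55 for Kif11, 1.3 for Rrm2, 1.16 for Mcm6, 1.12 for Ccnd2 and 0.92 for Cdkn2c. For Cdk6 the difference was -1.09. The ob/ob FH libraries carry Xist and no Y-linked counts, so sex and FH cannot be told apart in these differences.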

How the results depend on the processing

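On library totals the rises and falls of the 43 genes were 2 and 20 in the fasted and 14 and 9 in the ob/ob FH comparison. Signs turned there in the fasted livers for Cdk6 (-0.0751), Mcm6 (-0.0917), Pcna (-0.15), Rrm2 (-0.0143), Tyms (-0.10), Pttg1 (-0.13), Bub3 (-0.14), Tfdp2 (-0.21), Tfdp1 (-0.28) and Aen (-0.0064), and in the ob/ob livers for Pcna (-0.20). Thinning to equal depth gave 7 fasted rises, and a fit of the vector groups alone gave 7 genes higher and 1 lower in ob/ob livers, where the cause beyond fewer libraries was not tested. With 1 library left out, the counts ran from 6 to 13 rises and 7 to 11 falls (fasted), 23 to 31 and 1 to 5 (ob/ob), 5 to 14 higher and 0 to 1 lower effects (difference), 9 to 16 and 2 to 3 (vector groups) and 29 to 33 and 1 to 1 (FH groups). Of 168 results for single genes, 95 kept direction and call in every setting tried, and DESeq2 ended 8 calls. Low counts limit Ccna2, Cdc6, Gins2, Foxm1, Ccnb1, Aurkb, Plk1, Bub1 and Cdc20, each at 0 to 4 counts in every fasted FH library.

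To look for pairing by replicate number, each library's deviations from its group mean (log2 CPM of the genes tested) were correlated between groups. Same-numbered libraries gave -0.147 to 0.156, over 0.1 in 4 of 18 pairs. Differently numbered libraries gave -0.214 to 0.204, so the same-numbered pairs did not stand out. With 3 libraries per group these values cannot settle whether the numbers mark pairs. With the number as a block the counts were 10 and 9 (fasted), 28 and 4 (ob/ob), 13 and 1 (difference), 15 and 3 (vector groups) and 32 and 1 (FH groups).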
